A study of Mus musculus with 8 samples.

Results

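The cytosolic ribosomal proteins outside the stalk were described in 8 RNA sequencing libraries of mouse cortex. Members were all gene symbols made of Rpl or Rps, a number and an optional a, l, x or l1, which leaves out the stalk genes Rplp0, Rplp1 and Rplp2, the Rps6k kinases and the pseudogenes. This gave 79 of the 22869 gene symbols in the table, 48 of the large subunit and 31 of the small subunit. Each was represented by its transcript with the highest mean count over the 8 libraries. The study compared 4 libraries from mice treated with bexarotene, a drug that activates retinoid X receptors, with 4 libraries from mice that received vehicle, which the labels describe as glycerol at 0.2 mg/kg. All animals carried the APP/PS1 genotype, a pair of human transgenes that leads to amyloid plaques, on the C57BL/6 strain. The series set out to ask which transcripts, Trem2 among them, differ in the cortex under bexarotene. Not given in the sources used here were the dose and duration of bexarotene and the age and sex of the mice. The labels do not state how many animals a library came from, so the p-values reflect the spread among these libraries and nothing wider. In bulk tissue, fewer cells of a type and less RNA per cell cannot be told apart.

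Each cytosolic ribosome carries a single copy of most of these proteins, arranged on the ribosomal RNA of a large subunit, which joins amino acids, and a small subunit, which reads the mRNA. Their mRNAs are among the most abundant in most cells. Many begin with a pyrimidine-rich stretch directly at the 5′ end, the terminal oligopyrimidine tract, through which the mTORC1 kinase pathway and Larp1 control their translation and stability. In neurons a share of these mRNAs is carried into dendrites and axons. The genes have many processed pseudogenes, intronless copies of the mRNA elsewhere in the genome.

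The start regions of 59 of the 79 members were found in a RefSeq promoter table (build GRCm38.p6), with 71 start sites in all. A stretch of 8 or more C or T bases in a row within 15 bases on either side of the annotated start occurred at 27 of these 71 starts, 38.0%, against 12% of all 32851 start sites in the table. The sequences below run from base -30 to base 20 around the start, where base 1 is the first transcribed base and no base 0 exists. Capitals mark the longest run of C and T that falls within 15 bases of the start. The first 4 are the members with the highest log2 fold changes among those with a start in the table and a mean of at least 1 CPM (counts scaled to library size), Rpl17 not included, and the next 4 are those with the lowest. The last pair are paralogs, copies of Rpl22 and Rps27 that are separate genes. Rps28 lies at chr17:33824543-33824592 (minus strand), Rpl35 at chr2:39005112-39005161 (minus), Rpl41 at chr10:128549149-128549198 (minus) and Rpl11 at chr4:136053374-136053423 (minus). Rpl28 lies at chr7:4792935-4792984 (plus), Rpl15 at chr14:18270967-18271016 (minus), Rps16 at chr7:28350659-28350708 (plus) and Rpl27 at chr11:101442215-101442264 (plus). Rpl22l1 lies at chr3:28805478-28805527 (plus) and Rps27l at chr9:66946056-66946105 (plus).
Rps28: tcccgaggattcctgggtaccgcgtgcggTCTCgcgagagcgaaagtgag
Rpl35: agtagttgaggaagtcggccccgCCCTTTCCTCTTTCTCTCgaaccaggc
Rpl41: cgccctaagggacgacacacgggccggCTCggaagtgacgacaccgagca
Rpl11: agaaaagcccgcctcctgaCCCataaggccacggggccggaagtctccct
Rpl28: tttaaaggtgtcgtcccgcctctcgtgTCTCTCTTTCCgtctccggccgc
Rpl15: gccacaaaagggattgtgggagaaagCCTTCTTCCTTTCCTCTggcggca
Rps16: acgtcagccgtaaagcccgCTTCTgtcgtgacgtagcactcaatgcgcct
Rpl27: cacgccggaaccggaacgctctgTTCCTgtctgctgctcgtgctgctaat
Rpl22l1: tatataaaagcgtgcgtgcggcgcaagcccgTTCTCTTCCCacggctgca
Rps27l: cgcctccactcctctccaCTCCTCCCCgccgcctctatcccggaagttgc
Long runs were found at both ends of the order of fold changes: 18 bases in Rpl35, among the highest, and 17 and 11 bases in Rpl15 and Rpl28, among the lowest. Annotated starts can lie some bases away from those used in the cortex, so a short run says only that these letters are not in this window.

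Of 3 short sequences searched on both strands of the 250 bases before and 50 bases after each start, CCGGAAG, the core of sites bound by ETS family factors such as Gabpa, was present at 24 of the 71 starts (33.8%) against 8.9% of all starts. AAGATGG, the core of the site bound by Yy1, was at 12 starts (16.9%) against 6.3%. TATAAA, the TATA box, was at 6 starts (8.5%) against 13.6%. A match is a description of the letters only. The 26 tested members with a run of 8 or more had a median log2 fold change of 0.24, and the 31 without one had 0.17.

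Counts summed over all rows ran between 60106192 and 76542067 per bexarotene library and between 42413825 and 60955403 per vehicle library. On the leading principal component of log2 levels, which held 45.3% of the variance over 11601 genes, all libraries numbered 1 or 3 had positive scores and all numbered 2 or 4 negative ones. Xist, which coats the inactive X chromosome of females, and Y-linked RNA (the sum of Uty, Kdm5d, Eif2s3y and Ddx3y) also set libraries apart. Bexarotene libraries 1 to 4 had 180.4, 84.7, 115.6 and 218.0 CPM of Xist with 17.1, 88.5, 55.8 and 9.81 CPM of Y-linked RNA. Vehicle libraries 1 to 4 had 247.6, 0.861, 307.3 and 0.62 CPM of Xist with 0.282, 134.0, 0.251 and 141.1 CPM of Y-linked RNA. Each bexarotene library therefore held RNA of both kinds, and each vehicle library mainly one. The results below are also given within replicates 1 and 3 and within replicates 2 and 4. This split does not balance Xist and Y-linked RNA between the groups. Vehicle replicates 1 and 3 held almost no Y-linked RNA and vehicle replicates 2 and 4 almost no Xist, while the bexarotene libraries held both. Within each pair of replicates, and also in the main comparison of all 8 libraries, this makeup cannot be told apart from the treatment. Neuron markers, looked up because the labels give cortex, were abundant and summed to 4337.6 to 5910.4 CPM under bexarotene and 5111.3 to 5874.4 CPM under vehicle.

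The members spanned a wide range of levels. Of the 79, 77 passed the low-count filter, 46 of the large and 31 of the small subunit. Rpl10l, the testis paralog of Rpl10, had no count in any library. Rpl39l, the paralog of Rpl39 known from male germ cells, had 2, 8, 2 and 0 counts in bexarotene replicates 1 to 4 and 0 in each vehicle library. Both fell below the filter. Divided by transcript length, so that genes can be compared, the highest level was that of Rpl41, which encodes the smallest ribosomal protein. Its level was 387.4 CPM per kb under bexarotene and 255.0 CPM per kb under vehicle. High levels were also found for Rps15, a protein of the small-subunit head, with 278.3 CPM per kb under bexarotene and 237.3 under vehicle. Rpl8, which lies near the site where amino acids are joined, had 277.3 CPM per kb under bexarotene and 235.9 under vehicle. Rps21 had 203.9 CPM per kb under bexarotene and 169.0 under vehicle. Rpl4, whose loop reaches into the exit tunnel, had 166.6 CPM per kb under bexarotene and 140.7 under vehicle. Their levels contrast with a median over the 79 members of 13.4 CPM per kb and with 1.31 for Rps13 and 0.94 for Rps23 over the 8 libraries. The 6 members above 100 CPM held 44.9% of all CPM of the members, while 36 members were under 10 CPM.

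Many members share sequence with other genes, which can change how reads are counted. For each member transcript, the share of its 50-base stretches found in no annotated gene elsewhere in the genome was computed. Genes that overlap the member itself were left aside, so stretches shared only with them count as unique. The share had a median of 50.7% and ran from 6.7% in Rpl9 to 100% in 3 members, Rpl3l and Rpl39l among them. In 76 of the 79 members, at least 1 such stretch also occurs in an annotated pseudogene, with a median of 8 pseudogenes per member. Spearman's rho between mean CPM and the number of unique stretches was 0.37 over the members, a weak relation among genes of the same libraries that differ in length. The way reads that fit several places were counted is not given in the sources used here, so levels of members with many copies are uncertain, and the part of this in the uneven order of levels was not tested. The log2 fold changes showed little relation to the unique share, with a rho of 0.06 over the 77 tested members. The 38 tested members with at least 50% unique stretches and the 39 with fewer had the same median log2 fold change of 0.24.

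**Figure D1:**
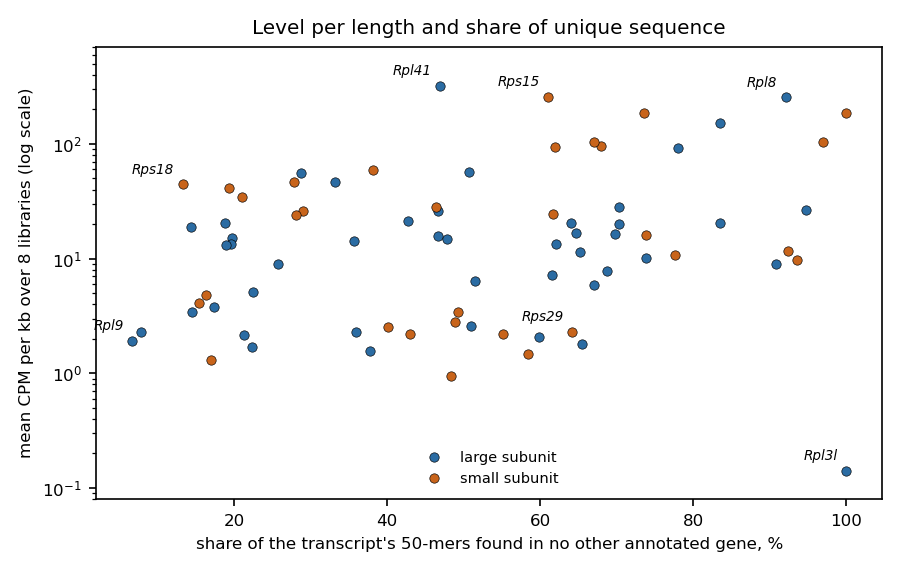
Mean level of each of the 77 tested members over the 8 libraries (vertical axis, CPM per kb, log scale) against its share of unique 50-base stretches (horizontal axis, percent), coloured by subunit. Unique stretches are those found in no other annotated gene, leaving aside genes that overlap the member itself. Rpl41, Rps15 and Rpl8 are at the top, Rpl9 has the smallest unique share (6.7%), and Rpl3l, with 100%, has the lowest level.

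Most members were somewhat higher under bexarotene, and none passed the threshold. The log2 fold change was above 0 in 62 of the 77 tested members (37 of 46 large, 25 of 31 small), against 50.2% of all 16069 genes tested. The median log2 fold change was 0.24 over the members, 0.23 in the large and 0.27 in the small subunit, against 0.00 over all genes tested. The lower and upper quartiles of the members were 0.11 and 0.35. By the quasi-likelihood test of edgeR, 0 of the 77 members had an adjusted p under 0.05, and 1 gene of the 16069, 0.00622%, did. That gene was Rplp2, which belongs to the stalk. At an unadjusted p under 0.05, 23 members were higher (12 large, 11 small) against 4.88% of all genes, and 0 were lower against 3.89%. In 16 members, 8 of each subunit, no vehicle library reached the lowest bexarotene library in CPM, which was so for 3.61% of all genes, and in 0 members was the reverse true, against 2.16%. DESeq2, run as an alternative, called 7 members higher at an adjusted p under 0.05 (Rpl6, Rpl14, Rpl21, Rpl41, Rps9 and Rps20 among them), where it called 0.436% of all genes higher. It gave no adjusted p for many low-count members, such as Rpl17 and Rps28, which could therefore not be called.

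**Figure D2:**
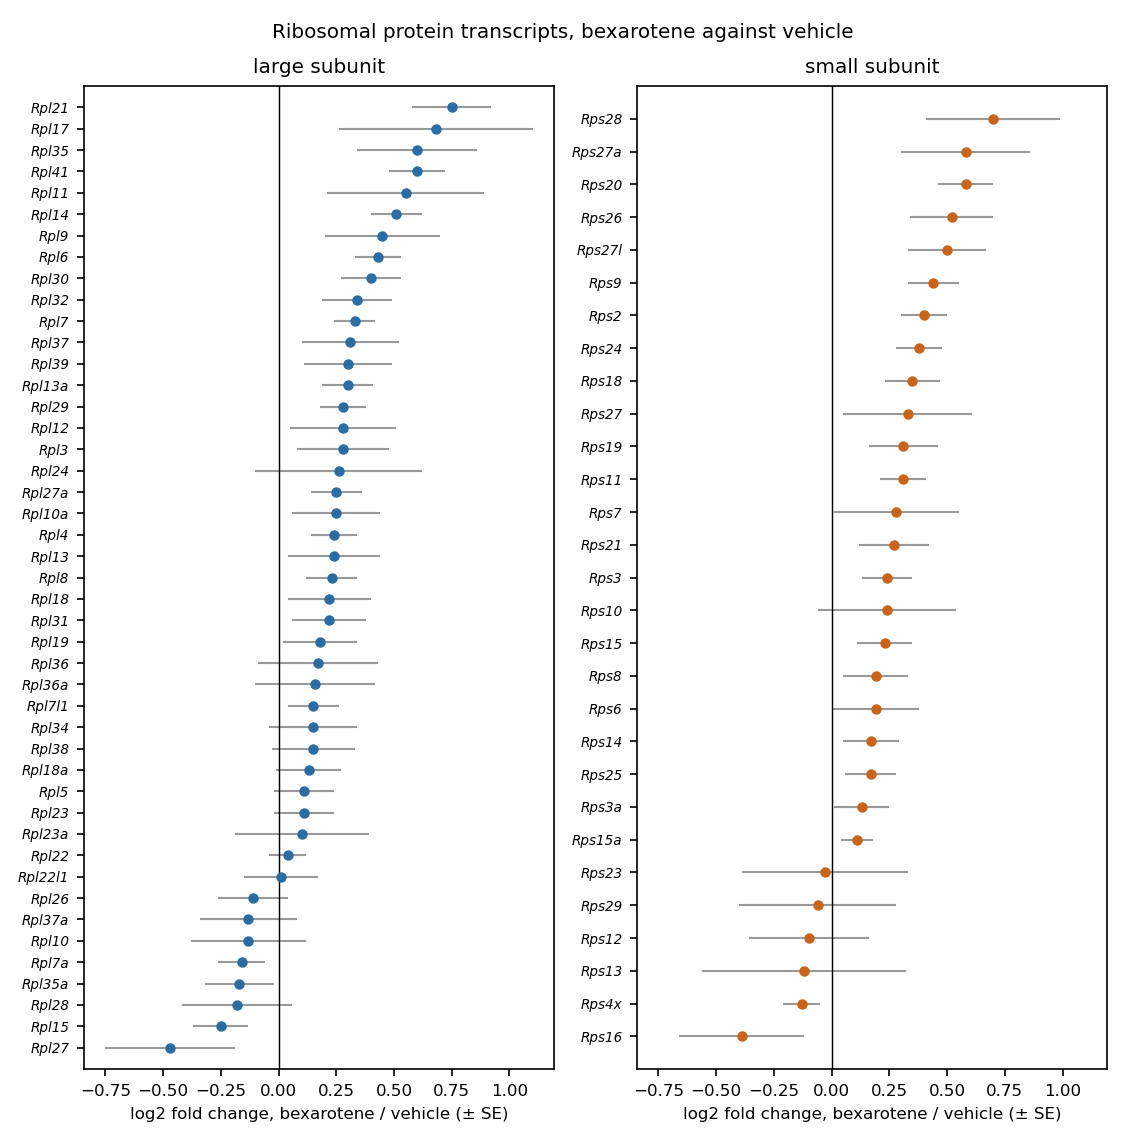
Log2 fold change of bexarotene over vehicle for 74 of the 77 tested members, with bars of 1 SE, large subunit on the left and small subunit on the right. Most points lie right of 0; the medians are 0.23 and 0.27, with Rpl21 (0.75) at the upper and Rpl27 (-0.47) at the lower end of the large subunit. Rpl3l, whose SE of 0.91 would stretch the axis, is not drawn.

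In the small subunit, Rps20, a protein of the head, was at 58.7, 48.6, 53.3 and 45.3 CPM in bexarotene replicates 1 to 4, against 27.8, 35.9, 36.2 and 37.4 CPM in vehicle replicates 1 to 4. The groups did not overlap, and vehicle replicate 1 was the lowest library. Its means were 51.5 ± 5.84 CPM with bexarotene and 34.3 ± 4.40 CPM with vehicle (SD, n = 4 each), a log2 fold change of 0.58 ± 0.12 (SE). The adjusted p was 0.36 in the quasi-likelihood test of edgeR and 0.00673 in DESeq2. The exact two-sided permutation test gave p = 0.0286, the smallest it can give with 4 against 4. Its transcript model is 3706 nt long, and 92.4% of its stretches are unique. Rps28, at the mRNA exit channel, had 1.79, 1.36, 1.81 and 1.63 CPM under bexarotene, against 0.799, 1.1, 1.36 and 0.787 CPM under vehicle. The groups met at 1.36 CPM and vehicle replicate 3 was the highest of its group. Its log2 fold change was 0.70 ± 0.29. Rps27a, made as a fusion with ubiquitin, had 1.95, 1.53, 2.94 and 1.97 CPM under bexarotene, against 1.08, 1.55, 1.67 and 1.29 CPM under vehicle. These groups overlapped, and bexarotene replicate 3 stood above the rest. The log2 fold change was 0.58 ± 0.28, and 0.38 without bexarotene replicate 3.

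The mRNA path through the small subunit is lined by proteins at its entry and its exit. These groups by place in the ribosome were made after values were seen. Rps2, Rps3 and Rps9, at the entry, were all higher, against 50.2% of all genes, with a median log2 fold change of 0.40. An unadjusted p under 0.05 in edgeR's quasi-likelihood test was found for 2 of the 3. At this level 4.88% of all genes and 29.9% of the tested members were higher. Of the tested members as a whole, 80.5% were above 0, with a median of 0.24. With an offset for transcript length and GC content the median of the 3 was 0.22, against 0.08 over the members. As the group was chosen with values known, these counts do not test it. Rps9 was at 103.7, 81.9, 91.9 and 80.8 CPM under bexarotene, against 56.9, 72.9, 66.6 and 67.2 CPM under vehicle. Its groups did not overlap, and replicate 1 was the highest with bexarotene and the lowest with vehicle. The log2 fold change of Rps9 was 0.44 ± 0.11, with adjusted p-values of 0.375 (edgeR, quasi-likelihood) and 0.0356 (DESeq2). At the exit, Rps14 had a log2 fold change of 0.17 ± 0.12. Rps26 had 24.4, 17.7, 21.1 and 16.3 CPM under bexarotene, against 10.5, 16.2, 16.5 and 12.1 CPM under vehicle. Bexarotene replicate 4 fell just below vehicle replicate 3, so the groups overlapped, and the log2 fold change was 0.52 ± 0.18. Rps15 and Rps21, near the top of the order of levels, had log2 fold changes of 0.23 ± 0.12 and 0.27 ± 0.15. Both overlapped between groups. Within replicates 2 and 4 they were -0.06 and -0.04.

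In the small subunit, 6 members had a log2 fold change below 0, and those named here overlapped between groups. Rps16, a protein of the head, had 1.55, 0.981, 1.37 and 1.77 CPM under bexarotene, against 1.5, 2.17, 1.9 and 1.84 CPM under vehicle, a log2 fold change of -0.39 ± 0.27, and of -0.24 without bexarotene replicate 2. Rps4x, encoded on the X chromosome, had 45.0, 42.0, 44.7 and 41.1 CPM under bexarotene, against 42.7, 49.3, 47.9 and 48.7 CPM under vehicle. Vehicle replicate 1 was the lowest vehicle library here too, and it fell among the bexarotene values. Its log2 fold change was -0.13 ± 0.08. The 4 X-linked members, Rpl10, Rpl36a, Rpl39 and Rps4x, had log2 fold changes between -0.13 and 0.30. Rps12 had a log2 fold change of -0.10 ± 0.26, which was 0.34 for libraries 1 and 3 of each group and -0.48 for libraries 2 and 4. Among small-subunit members of at least 1 CPM, Rps4x had the narrowest range over the 8 libraries, 0.26 on the log2 scale. Rps15a, with a range of 0.28, had a mean of 51.9 ± 2.03 CPM with bexarotene and of 48.3 ± 2.5 CPM with vehicle (SD, n = 4 each) and a log2 fold change of 0.11 ± 0.07. None of these passed the test.

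In the large subunit, Rpl21, whose human gene is known for a hereditary hair loss, had the highest fold change. Rpl21 was at 27.4, 22.1, 21.2 and 24.6 CPM in bexarotene replicates 1 to 4, against 13.6, 19.5, 12.4 and 11.2 CPM in vehicle replicates 1 to 4. The groups did not overlap, and vehicle replicate 2 came closest to the bexarotene libraries. The log2 fold change was 0.75 ± 0.17, 0.90 for libraries 1 and 3 of each group and 0.60 for libraries 2 and 4. Its adjusted p was 0.362 in the quasi-likelihood test of edgeR and 0.0167 in DESeq2. Stretches of Rpl21 occur in 81 annotated pseudogenes, although 73.8% of its stretches are unique.

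Rpl41 was at 206.1, 142.2, 174.6 and 154.3 CPM under bexarotene, against 99.2, 122.4, 115.5 and 108.6 CPM under vehicle. No vehicle library reached the lowest bexarotene library. Its means were 169.3 ± 28.0 CPM with bexarotene and 111.4 ± 9.89 CPM with vehicle (SD, n = 4 each), a log2 fold change of 0.60 ± 0.12, with adjusted p-values of 0.36 (edgeR, quasi-likelihood) and 0.004 (DESeq2). Rpl14, a protein that bacterial ribosomes lack, had 79.1, 60.8, 72.9 and 58.8 CPM under bexarotene, against 43.2, 45.1, 50.5 and 51.3 CPM under vehicle. Its groups did not overlap either, and its bexarotene replicates 1 and 3 were the highest of all. The log2 fold change was 0.51 ± 0.11, with adjusted p-values of 0.36 (edgeR, quasi-likelihood) and 0.0145 (DESeq2). Rpl17, Rpl35 and Rpl11 also had log2 fold changes above 0.5, but at 1 to 3 CPM, and their groups overlapped. Leaving out single libraries gave 0.39 (without vehicle replicate 4) to 0.93 (without vehicle replicate 1) for Rpl17, 0.36 (without vehicle replicate 2) to 0.87 (without vehicle replicate 3) for Rpl11 and 0.46 to 0.71 for Rpl35. Rpl17, at the tunnel exit, had a mean of 2.04 ± 0.243 CPM with bexarotene and of 1.28 ± 0.693 CPM with vehicle (SD, n = 4 each), with vehicle replicate 4 at 0.402 CPM. Rpl35, also at the tunnel exit, had a mean of 2.36 ± 0.421 CPM with bexarotene and of 1.55 ± 0.368 CPM with vehicle (SD, n = 4 each).

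**Figure D3:**
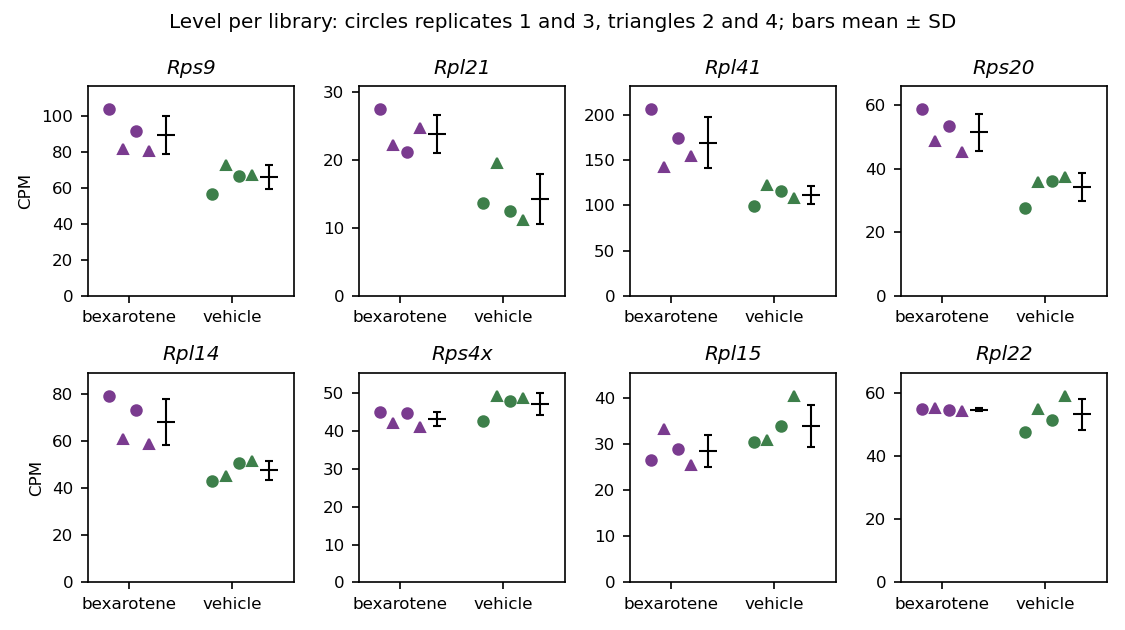
CPM of 8 members in each library, bexarotene on the left and vehicle on the right of each panel, with circles for replicates 1 and 3, triangles for replicates 2 and 4, and bars for the mean ± SD of 4 libraries. In the first 5 panels (Rps9, Rpl21, Rpl41, Rps20, Rpl14) all bexarotene points lie above all vehicle points, while Rps4x, Rpl15 and Rpl22 overlap.

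Proteins at the tunnel through which the new chain leaves, Rpl4, Rpl17, Rpl19, Rpl23a, Rpl26, Rpl31, Rpl35 and Rpl39, were higher in 7 of 8, with a median log2 fold change of 0.23, and Rpl26 was the exception at -0.11. Of all genes tested 50.2% were higher, and of the 77 tested members 62 were, with a median of 0.24, so these proteins were close to the members as a whole. Rpl4, the highest of them, had 278.4, 245.6, 256.9 and 244.2 CPM under bexarotene, against 183.8, 247.9, 210.0 and 223.6 CPM under vehicle. Vehicle replicate 2 was above 2 of the bexarotene libraries. The log2 fold change of Rpl4 was 0.24 ± 0.10, 0.44 for libraries 1 and 3 of each group and 0.06 for libraries 2 and 4. Rpl8 followed it, with 236.0 ± 19.5 CPM with bexarotene and 200.8 ± 27.8 CPM with vehicle (SD, n = 4 each) and log2 differences of 0.51 and -0.03 within the same pairs of replicates. Rpl5 and Rpl11, which bind 5S ribosomal RNA and, when free, the p53 regulator Mdm2, had log2 fold changes of 0.11 ± 0.13 and 0.55 ± 0.34. Rpl11 was at 1.69, 1.45, 1.78 and 1.32 CPM under bexarotene, against 1.08, 0.62, 1.7 and 0.871 CPM under vehicle. Vehicle replicate 3 lay within the bexarotene values. Rpl35a had a log2 fold change of -0.17 ± 0.15.

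Below 0 in the large subunit, Rpl27 was lowest. It had 1.12, 0.967, 1.47 and 1.13 CPM under bexarotene, against 1.72, 1.17, 1.81 and 1.79 CPM under vehicle. The groups overlapped through vehicle replicate 2, and the log2 fold change was -0.47 ± 0.28. Rpl15 had 26.5, 33.3, 28.8 and 25.5 CPM under bexarotene, against 30.5, 30.9, 33.9 and 40.4 CPM under vehicle, a log2 fold change of -0.25 ± 0.12. Bexarotene replicate 2 lay inside the vehicle range. edgeR's quasi-likelihood test gave an unadjusted p of 0.0622 (adjusted p 0.603), which did not pass. Rpl28 had a log2 fold change of -0.18 ± 0.24, which was -0.06 without vehicle replicate 4, -0.31 without bexarotene replicate 1 and -0.30 without vehicle replicate 2. Nkiras1 overlaps an exon of Rpl15 on the other strand, as Ube2s does for Rpl28. Of the 79 members, 19 have such an overlap, and without a known strand setting in counting their reads cannot be told apart. The tested members with such an overlap had a median of 0.25 and those without had 0.23. Rpl22, an RNA-binding protein of the ribosome surface, had the narrowest range of the large-subunit members of at least 1 CPM, 0.31 on the log2 scale, and Rpl17 the widest, 2.40. Rpl22 was at 54.7, 55.2, 54.5 and 54.2 CPM under bexarotene, against 47.6, 54.8, 51.2 and 59.0 CPM under vehicle, with a log2 fold change of 0.04 ± 0.08.

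The paralogs, taken here as the members whose names end in l or l1, did not move as one. Rps27l, known as a p53 target, had 6.54, 6.88, 6.35 and 5.44 CPM under bexarotene, against 4.35, 5.27, 4.79 and 3.4 CPM under vehicle. Its groups did not overlap, and the log2 fold change was 0.50 ± 0.17; the adjusted p of edgeR's quasi-likelihood test was 0.477. It was 0.50 for libraries 1 and 3 of each group and 0.51 for libraries 2 and 4. Per length, Rps27l was at 12.6 CPM per kb under bexarotene and 8.92 under vehicle, while its standard partner Rps27 was at 3.10 CPM per kb under bexarotene and 2.45 under vehicle. Rps27 had 2 rows, and the row used, that with the highest mean count, is a non-coding RefSeq record. This comparison is therefore not between 2 coding records. The unique share was 77.6% in Rps27l and 48.9% in Rps27. Rpl7l1 had a mean of 24.6 ± 1.80 CPM with bexarotene and of 22.2 ± 2.78 CPM with vehicle (SD, n = 4 each), with overlapping groups. Rpl22l1 had a mean of 11.8 ± 2.57 CPM with bexarotene and of 11.7 ± 1.06 CPM with vehicle (SD, n = 4 each), also with overlap. Per length, Rpl22l1 was at 21.3 CPM per kb under bexarotene and 21.2 under vehicle, and Rpl22 at 26.7 CPM per kb under bexarotene and 25.9 under vehicle. Rpl3l, the muscle paralog of Rpl3, was at most 0.376 CPM in any library, and its log2 fold change of -0.07 ± 0.91 was too imprecise to give a direction. The median over the 4 tested paralogs was 0.08.

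The libraries did not share these differences evenly. Bexarotene replicates 1 to 4 had summed levels of the members of 2885.6, 2403.3, 2676.0 and 2417.5 CPM, and vehicle replicates 1 to 4 had 1861.1, 2328.2, 2138.4 and 2240.7 CPM. No vehicle library reached the lowest bexarotene sum, with bexarotene replicate 1 the highest and vehicle replicate 1 the lowest. Of the 77 tested members, 43 had their lowest value of all 8 libraries in vehicle replicate 1, and 37 had their highest in bexarotene replicate 1. The same shares over all genes were not computed. The members' median log2 CPM relative to each gene's mean was 0.31 in bexarotene replicate 1 and -0.33 in vehicle replicate 1. Other genes with transcripts under 700 nt had 0.23 and -0.24 there, and all genes tested had 0.03 and -0.0. Within replicates 1 and 3 the median log2 fold change of the members was 0.37 (large 0.33, small 0.52), and within replicates 2 and 4 it was 0.10 (large 0.04, small 0.14). Above 0 were 65 members within replicates 1 and 3, against 52.2% of all genes, and 49 within replicates 2 and 4, against 48.9%. In edgeR's quasi-likelihood test within replicates 1 and 3, 18 members were called higher at an adjusted p under 0.05, against 2.06% of all genes. Within replicates 2 and 4, 0 were, against 0.0% of all genes, and 5 were higher at an unadjusted p under 0.05, against 2.97% of all genes, while 1 was lower, against 2.3%. The log2 difference was larger within replicates 1 and 3 in 60 of the 77 members, and 43 members were higher in both pairs of replicates. The shares of all genes for these counts were not computed. The difference between the pairs was not tested. Without vehicle replicate 1 the median was 0.15 in the large and 0.18 in the small subunit, and without bexarotene replicate 1 it was 0.18 in each.

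**Figure D4:**
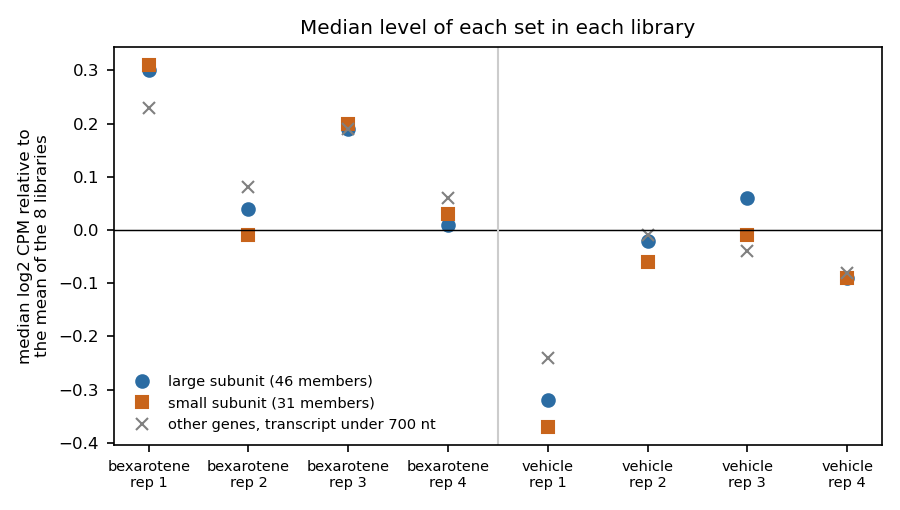
Median log2 CPM of the large-subunit members, the small-subunit members and all other genes with transcripts under 700 nt in each library, relative to each gene's mean over the 8 libraries (vertical axis), bexarotene on the left and vehicle on the right. Bexarotene replicate 1 is highest (0.30 large, 0.31 small) and vehicle replicate 1 lowest (-0.32 large, -0.37 small), and the other short genes follow the same order of extremes (0.23 and -0.24).

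Transcript length moved with these results. The members' transcripts had a median length of 805 nt, against 2898 nt for all genes tested. Among genes that are not members, the 479 with transcripts under 700 nt had a median log2 fold change of 0.19 and the 2154 between 700 and 1500 nt had 0.14. The 11378 between 1500 and 6000 nt had 0.00, and the 1781 above 6000 nt had -0.12. The 30 tested members under 700 nt had a median of 0.22, the 38 between 700 and 1500 nt had 0.25, and the 9 between 1500 and 6000 nt had 0.15. Within replicates 1 and 3, the other genes under 700 nt had a median of 0.30, and within replicates 2 and 4 of 0.06. Across genes, Spearman's rho between length and log2 fold change was -0.35 over all genes tested and -0.08 over the members. With an offset for transcript length and GC content in each library, the median of the members was 0.08, of the large subunit 0.06 and of the small subunit 0.09. In that fit 53 of 77 members were above 0 (68.8%), against 51.9% of all genes. At an unadjusted p under 0.05, 14 were higher, against 3.66% of all genes, and 4 were lower, against 2.12%. Rpl21 had a log2 fold change of 0.70 under the offset and Rps20 of 0.71, while Rpl41 was at 0.36, Rps9 at 0.24, Rps21 at 0.06, Rpl8 at 0.04 and Rps14 at -0.05. The offset used the longest matching transcript model, 1856 nt in Rpl21, 3706 nt in Rps20 and 5179 nt in Rps15a. The length groups, the rho over the members and the levels per length used the same models. If the transcripts in the cortex are shorter, all of these treated such members as longer than they are, which was not tested.

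**Figure D5:**
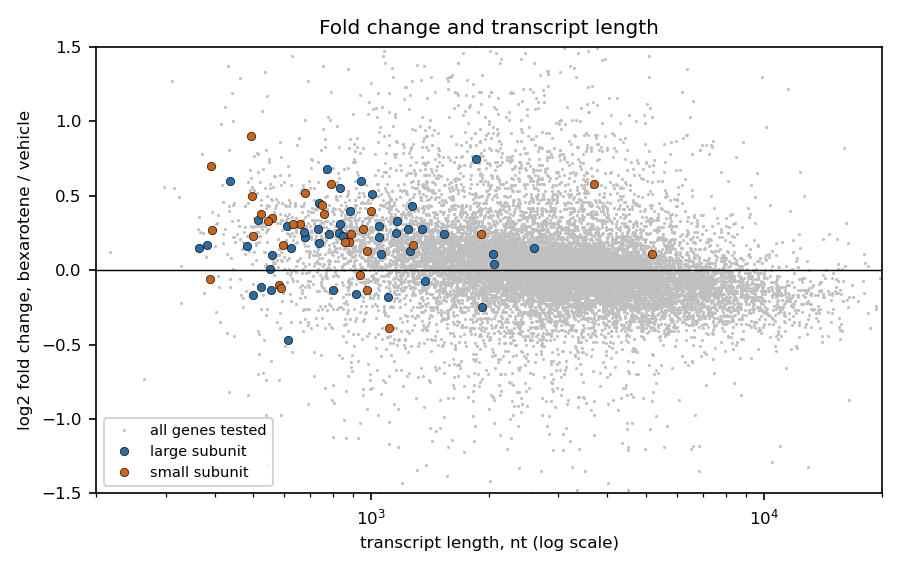
Log2 fold change of bexarotene over vehicle (vertical axis) against transcript length in nt (horizontal axis, log scale) for all genes tested with a known length (grey; 236 of 15869 lie outside the axes) and for the members of each subunit. Grey points drift downwards with length, from a median of 0.19 under 700 nt to -0.12 above 6000 nt, and most members lie at the short end, above 0.

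Cell type markers also varied between libraries, and their counts stand beside the 50.2% of all tested genes that were above 0. Choroid plexus markers were higher in 8 of 8, with sums of 77.0 to 1463.0 CPM under bexarotene and 18.6 to 41.8 CPM under vehicle. Microglia markers were higher in 8 of 8, at 506.5 to 664.9 CPM under bexarotene and 394.1 to 496.1 CPM under vehicle. Striatum markers were higher in 8 of 8, at 221.1 to 1066.2 CPM under bexarotene and 176.0 to 527.9 CPM under vehicle, and their 3 highest libraries were bexarotene replicates 1 and 3 and vehicle replicate 1. Liver markers, which share Ttr with the choroid plexus list, were higher in 7 of 7, at 97.3 to 1513.0 CPM under bexarotene and 6.91 to 143.7 CPM under vehicle. Striatum and liver sums overlapped between groups, while choroid plexus and microglia sums did not. Astrocyte (7 of 8 higher), oligodendrocyte (7 of 8), endothelial (6 of 7), erythroid (5 of 6 tested) and skeletal muscle markers (3 of 5 tested) overlapped between groups, as did neuron markers (2 of 8 higher, median log2 fold change -0.05), and testis markers were at most 0.31 CPM in sum, with Prm2, Tnp1 and Akap4 at 0. The part of these cells in the members' levels was not tested. Bexarotene replicates 1 and 3 were the highest of the 8 libraries both in striatum markers (1066.2 and 778.6 CPM) and in the summed members (2885.6 and 2676.0 CPM). Vehicle replicate 1, the lowest in summed members, was the third highest in striatum markers. Bexarotene replicate 2, with the highest choroid plexus sum, was the lowest bexarotene library in summed members.

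Other genes of the translation machinery were counted from lists. The share of all tested genes above 0, beside which the counts of each list stand, was 50.2%. The 3 stalk genes were all higher, and Rplp2, one of the acidic proteins that recruit elongation factors, had 23.2, 19.3, 20.2 and 19.3 CPM under bexarotene, against 6.07, 7.55, 7.35 and 5.68 CPM under vehicle. It rose by 1.62 ± 0.13 on the log2 scale, and the adjusted p of edgeR's quasi-likelihood test was 0.00307. Apart from Rplp2, no listed gene passed this test. Among 5 ribosomal proteins with other names, 3 were higher, led by Rpsa, a small-subunit protein also known as the laminin receptor (0.30 ± 0.13). The list of elongation factors also held Eef2k, Eef1e1 and Tsfm, which are not cytosolic elongation factors. Its genes were higher in 8 of 10 (median 0.17, and 0.08 with the length and GC offset), 3 of them (against 4.88% of all genes) at an unadjusted p under 0.05. Eef1b2, an exchange factor for the elongation factor that brings in tRNA, had a mean of 100.1 ± 12.9 CPM with bexarotene and of 78.5 ± 4.07 CPM with vehicle (SD, n = 4 each), and its groups did not overlap. Initiation factors were higher in 20 of 29 (median 0.09), and at an unadjusted p under 0.05 there were 6 higher (against 4.88% of all genes) and 1 lower (against 3.89%). Eif1, which helps select the start codon, had a log2 fold change of 0.35 ± 0.08, with adjusted p-values of 0.362 (edgeR, quasi-likelihood) and 0.0218 (DESeq2), while the cap-binding Eif4e, named after its values were seen, had -0.25 ± 0.07.

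Other mRNAs that begin with an oligopyrimidine tract were higher in 6 of 9 (median 0.16), with Vim, an intermediate filament protein of astrocytes and vessel cells, at 0.36 ± 0.13. Ribosome biogenesis factors were higher in 31 of 47 (median 0.06), 6 of them (against 4.88% of all genes) at an unadjusted p under 0.05. The smallest p was that of Polr1d, a subunit shared by RNA polymerases I and III, with 0.34 ± 0.10, and 0.20 with the offset. Factors that meet the nascent chain were higher in 12 of 19 (median 0.06), with Srp68, of the signal recognition particle, at 0.17 ± 0.07. The mTORC1 pathway and regulators of tract mRNAs were higher in 9 of 22 (median -0.05), and at an unadjusted p under 0.05 there were 0 higher (against 4.88% of all genes) and 4 lower (against 3.89%). Tia1, which holds tract mRNAs back from translation under starvation, had 34.8, 37.1, 38.1 and 36.6 CPM under bexarotene, against 42.5, 51.3, 51.4 and 46.9 CPM under vehicle. Its highest bexarotene library was below its lowest vehicle library. Its log2 fold change was -0.39 ± 0.08, with adjusted p-values of 0.36 (edgeR, quasi-likelihood) and 0.0115 (DESeq2), and -0.25 with the offset. Among transcription factors known at ribosomal protein promoters, 2 of 7 were higher (median -0.17), and Gabpa had -0.20 ± 0.08, and -0.05 with the offset. With the length and GC offset the medians of these last lists were 0.01 for the mTORC1 list and 0.00 for the transcription factors.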

How the data were processed

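Stranded TruSeq mRNA libraries were made from RNA purified with the RNeasy kit, per the labels' protocols. The deposited values are raw counts per RefSeq transcript (28644 rows). The submitters' processing notes name the build mm9 and edgeR. Which aligner and counter were used, with which strand setting and which treatment of reads that fit several places, is not given in the sources used here. All value columns were used (0 left out).

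Groups and replicate numbers come from the titles. Differences were tested in edgeR 4.0.16 under R 4.3.3 by the quasi-likelihood F test, with group as the only term, robust dispersion, TMM factors and filterByExpr at its defaults, adjusted by Benjamini-Hochberg over the 21285 rows past the filter, which stand for 16069 genes. CPM are relative to the tested rows' total times the TMM factor. A two-sided exact permutation test of 8 log2 CPM values (prior count 2) stands beside it. DESeq2 1.42.0, limma-voom (limma 3.58.1), other size factors, no filter, other ways to combine rows, a length and GC offset (mgcv 1.9.3), a replicate block, replicate pairs and leaving out each library were alternatives. The fitting code was tested on simulated counts. Transcript lengths were matched by accession to GENCODE for 97.0% of rows and all 79 members. The longest matching model was used, also for the unique shares, and it can be longer than the RefSeq transcript. Sequences are from RefSeq.

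Libraries with the same number deviated together from their groups' means, with correlations of 0.50, 0.30, 0.24 and 0.32 over 11601 genes, all over 0.1. On the titles and this check alone, the numbers were taken as pairs in the replicate block. That block was an alternative only, and the main test did not use pairs. Bexarotene replicate 3 had its highest correlation, 0.56, with vehicle replicate 1 rather than with its own number. Bexarotene replicate 4 had its highest, 0.38, with vehicle replicate 2. Pairs therefore cannot be told from the split of replicates 1 and 3 against 2 and 4.

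Members and lists were chosen with earlier results of these data known, and the groups by place in the ribosome were made after values were seen. Members named were, in each subunit, the 6 highest and 4 lowest log2 fold changes at a mean of 1 CPM or more, the 3 highest levels per length and the widest and narrowest range, plus paralogs and, of each list, the genes past the threshold or else the one with the smallest p. Of these, 2 members are not reported here, though counts and medians include them. Others named were chosen after their values were seen.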

Additional observations from a re-analysis of the deposited data

Results flagged for a closer look

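In 4 of 60 groups of 4 libraries examined, 1 library stood apart from the other libraries of its group by Dixon's criterion at the 95% level, which chance alone meets in about 1 of 20 groups. Rps20 was at 27.8 CPM in vehicle replicate 1, below the 35.9 to 37.4 CPM of the other vehicle libraries. Rpl22l1 was at 10.1 CPM in vehicle replicate 4, below 12.1 to 12.3 CPM in the others. Rpl27 was at 1.17 CPM in vehicle replicate 2, below 1.72 to 1.81 CPM. Rpl28 was at 2.36 CPM in bexarotene replicate 1, above the 1.72 CPM that the other bexarotene libraries shared.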

How the results depend on the processing

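The count of members past the threshold was 0 in edgeR's quasi-likelihood test and stayed 0 except with DESeq2 (7) and within replicates 1 and 3 (18). Leaving out each library gave 0 calls, 16 to 26 members higher at an unadjusted p under 0.05, 61 to 66 above 0, and medians of 0.17 to 0.29 (large 0.15 to 0.27, small 0.18 to 0.34). The shares over all genes were not computed for these fits or for those with the replicate block. Their counts therefore cannot be set against all genes. With the length and GC offset the medians were 0.08 over all members, 0.06 (large) and 0.09 (small). In that fit 14 members were higher at an unadjusted p under 0.05, against 3.66% of all genes. With the replicate block and the offset together 14 were, and the small-subunit median was 0.11. Within replicates 1 and 3 the small-subunit median was 0.52. Within replicates 2 and 4 the large-subunit median was 0.04 and 5 members were higher at an unadjusted p under 0.05, against 2.97% of all genes. The cause of these shifts was not tested. The replicate block alone gave 0 calls, 22 members higher at an unadjusted p under 0.05 and a median of 0.25, and it changed no call. RLE and upper-quartile factors gave medians of 0.23 and 0.27.

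Of 609 log2 fold changes of the 29 named tested members under alternatives, 567 kept direction and side of the threshold, 14 passed it (5 with DESeq2, 9 within replicates 1 and 3), and 28, in 8 members, changed sign. DESeq2 gave no adjusted p for some low-count members, Rpl11, Rpl17 and Rpl27 among them, and these count among the 567 by direction alone. Within replicates 2 and 4 the members that changed sign were Rpl22 (-0.06), Rpl22l1 (-0.16), Rpl8 (-0.03), Rps15 (-0.06) and Rps21 (-0.04), and within replicates 1 and 3 Rpl35a (0.12) and Rps12 (0.34). Rps15 was at -0.00 with the offset, with or without the block. Rpl22l1 was at -0.02 in limma-voom, -0.01 with the replicate block, -0.07 with the offset and -0.08 with both. Rpl3l was at 0.80 in limma-voom, 0.29 with the replicate block, 0.16 with block and offset and 0.11 with rows summed. Leaving out 1 library gave -0.01 to 0.10 for Rpl22, -0.07 to 0.16 for Rpl22l1, -0.49 to 0.39 for Rpl3l and -0.29 to 0.02 for Rps12. Among members near 1 CPM the SE was 0.29 beside a log2 fold change of 0.70 in Rps28, and 0.36 beside -0.03 in Rps23; the part of depth was not tested.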
